A study of Danio rerio with 4 samples.

Results

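In all, 8 genes of white blood cells and inflammation were followed through 4 RNA-seq libraries of sorted zebrafish embryo cells. They are the cytokine gene il1b, the matrix protease genes mmp9 and mmp13a, the metabolic enzyme gene irg1l, the lysosomal protease gene ctssb.1, the granule enzyme genes lyz and mpx, and LOC100151049. That last row is listed as the lysosomal gene laptm5, a name left in doubt by its position and width, given further on. The members were taken by name, as the 8 rows of the files whose gene column holds one of these identifiers, out of 14417 genes. The names themselves were chosen with earlier results of these data known. The unit of every level is FPKM as deposited by the authors, which counts fragments per transcript length and per mapped fragments. All 8 members averaged 1 FPKM or more over the libraries, as did 11971 genes in all, which are called measured here, and each member stood alone at its locus.

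The cells were sorted as Gata1+ from embryos of the gata1:GFP line, in which green fluorescent protein marks cells with an active gata1 promoter, mainly red blood cell precursors. All embryos had been injected at the 1-cell stage with a morpholino oligonucleotide (MO), either the standard MO (control) or an MO against foxo3b, which encodes a FOXO transcription factor. Cells were taken at 24 and 48 hours post fertilization (hpf), giving 4 groups: control 24 hpf, foxo3b MO 24 hpf, control 48 hpf and foxo3b MO 48 hpf. Each group had 1 library, so no spread within a group and no test can be given, and every difference below describes these libraries. The labels give neither the number of embryos pooled nor the site that the MO binds.

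Zebrafish embryos make primitive macrophages and neutrophils early in development, apart from the red cell lineage that the gata1 reporter marks. Neutrophils carry lysozyme and myeloperoxidase in granules, and macrophages digest what they take up in lysosomes with cathepsins. On infection or injury, interleukin 1 beta is released and matrix metalloproteases cut the extracellular matrix. In zebrafish larvae, inflamed epidermis is a further known source of irg1l and matrix proteases. No protein or promoter sequence of these genes was at hand, and none is shown.

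Total FPKM lay between 1505447 and 2402299, and from 748 to 1151 genes were listed at 0 in a library. Relative depth, read from steps in the lowest FPKM values with control at 24 hpf set to 1, was 0.545 in the foxo3b MO library of 24 hpf, and at 48 hpf it was 0.719 in control and 0.497 in foxo3b MO. The number of reads behind a value is unknown, so intervals for counting error are lacking and low values such as those of il1b are the least certain. The mRNA of foxo3b was at 46.5 FPKM in the library labelled foxo3b MO of 24 hpf, against 6.40 FPKM in control, and at 48 hpf at 50.3 FPKM against 38.1 FPKM. Since an MO can block translation and leave the mRNA in place, these levels do not check the labels.

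Leukocyte transcripts were present at low to moderate levels in cells sorted for a red cell reporter. Of 12 general leukocyte genes other than the 8 members, 10 were measured, and the defining genes lcp1 and coro1a, both for actin-binding proteins, stood between 4.85 and 8.54 FPKM and between 9.57 and 20.1 FPKM. The files give coro1a the same interval as the epithelial claudin gene cldni, at 186 to 316 FPKM, and how reads there were divided is not stated. The myeloid transcription factor gene spi1 (PU.1) lay between 2.86 and 5.87 FPKM. The macrophage genes mpeg1, for a pore-forming protein, and csf1ra, for the receptor of colony-stimulating factor 1, were each under 2 FPKM in both 24 hpf libraries. Other measured genes of the macrophage list ran there from lgals9l1, at 0.148 FPKM (control) and 0.172 FPKM (foxo3b MO), to acp5a, at 264 and 194 FPKM. Between them mfap4 stood at 27.7 and 16.6 FPKM. At 48 hpf mpeg1 reached 5.36 FPKM in foxo3b MO against 4.15 FPKM in control, and csf1ra 6.90 FPKM against 9.65 FPKM. Of 9 matched genes of the lymphoid list, rag1, rag2, lck, il7r and ccr9a were under 1 FPKM in all 4 libraries, and 2 were measured. Those were gata3, between 9.10 and 16.4 FPKM, and ikzf1, between 1.30 and 2.61 FPKM. For scale, the skin keratin gene krt4 lay between 8263 and 10879 FPKM and gata1a between 2.49 and 8.23 FPKM. In bulk libraries such as these, fewer cells of a type and less RNA per cell cannot be told apart.

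At 48 hpf, 5 of the 8 genes were at least 2-fold higher in foxo3b MO than in control: il1b, mmp9, mmp13a, irg1l and ctssb.1. Over the 11971 measured genes, 1.92% passed 2-fold upward in that comparison and 3.67% downward. LOC100151049 was at least 2-fold lower, and lyz and mpx lay within 2-fold. On a scale of equal total FPKM mpx passed 2-fold upward too, at a log2 fold of 1.19, as did 16.8% of all genes on that scale, whose median moved by 0.61. The median log2 fold of the 8 genes was 2.11, against -0.02 over all measured genes. Since the 8 genes were chosen with earlier results of these data known, the count and the median are descriptions only. Log2 folds were taken after adding 1 FPKM to each value, which understates the change of low genes.

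**Figure D1:**
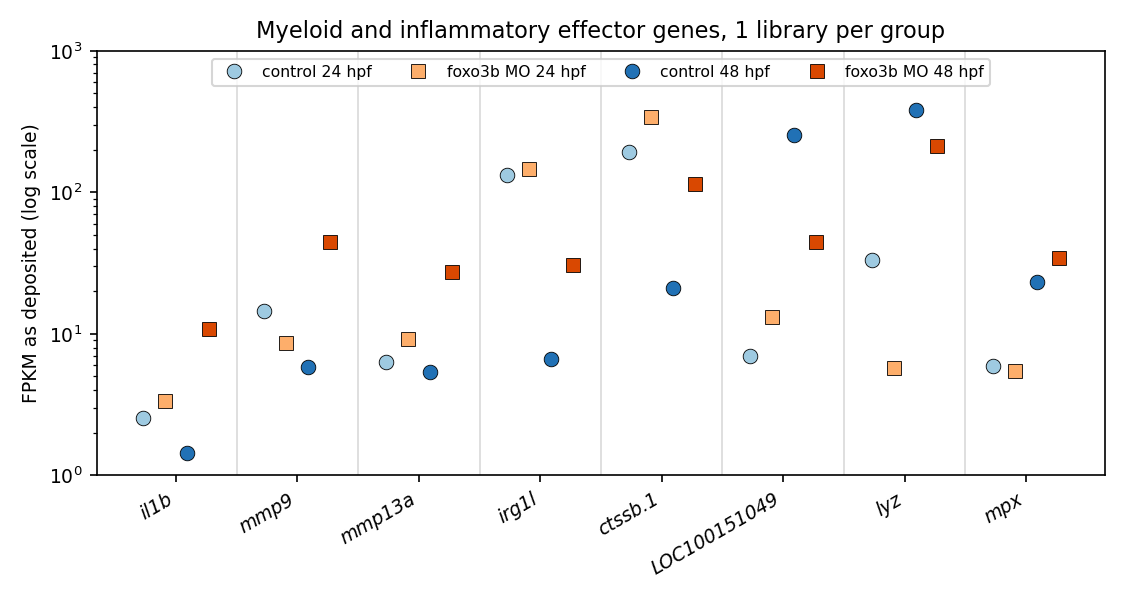
FPKM of each gene on a log scale, 1 point per library (circles control, squares foxo3b MO, light 24 hpf, dark 48 hpf). The foxo3b MO library at 48 hpf is the highest of the 4 for il1b, mmp9, mmp13a and mpx, whereas irg1l and ctssb.1 are highest in foxo3b MO at 24 hpf and lyz and LOC100151049 in control at 48 hpf.

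The cytokine gene il1b, on Zv9 chromosome 10 at 46394747 to 46400871, was the least abundant of the 8. At 24 hpf control had 2.54 FPKM and foxo3b MO 3.34 FPKM of it, and at 48 hpf control had 1.43 FPKM and foxo3b MO 10.9 FPKM. The foxo3b MO library at 48 hpf thus stood above the other 3 libraries, which were all under 4 FPKM. The ratio at 48 hpf was 7.63, a log2 fold of 2.29 that ranked 31 from the top of 11971 genes. At 24 hpf the log2 fold was 0.29, close to the median of all genes, 0.19.

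Matrix proteases showed the same high library. The gelatinase gene mmp9 lies on chromosome 8 at 25134467 to 25148890 and measured 14.4 FPKM (control) and 8.65 FPKM (foxo3b MO) at 24 hpf, then 5.86 FPKM (control) and 44.3 FPKM (foxo3b MO) at 48 hpf. Its log2 fold was -0.68 at 24 hpf and 2.72 at 48 hpf, the largest of the 8, at rank 24 from the top. The collagenase gene mmp13a, on chromosome 10 at 39959949 to 39979811, measured 6.33 and 9.24 FPKM in the same order at the earlier stage and 5.37 and 27.3 FPKM at the later. Here the first 3 libraries lay within 2-fold of each other, and the log2 fold at 48 hpf was 2.15.

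The pair irg1l and ctssb.1 had high values at 24 hpf in both treatments. The gene irg1l is a relative of irg1, which encodes the enzyme that makes itaconate in mouse and human macrophages. On chromosome 14 at 11625680 to 11629184, irg1l measured 133 FPKM (control) and 146 FPKM (foxo3b MO) at 24 hpf, then 6.59 FPKM (control) and 30.9 FPKM (foxo3b MO) at 48 hpf. Both 24 hpf libraries were far above both 48 hpf libraries, and within 48 hpf the ratio of foxo3b MO to control was 4.69, a log2 fold of 2.07. The cathepsin S gene ctssb.1, now named ctss2.1, encodes a lysosomal protease that cuts proteins for antigen presentation in mammals. It lies on chromosome 16 at 31769417 to 31773725 and measured 192 and 342 FPKM in the same order at the earlier stage, then 21.1 and 115 FPKM at the later. Foxo3b MO was the higher library at both stages, with a log2 fold of 0.83 at 24 hpf and 2.39 at 48 hpf. The neighbouring copy ctssb.2, at 3.61 FPKM in foxo3b MO against 4.42 FPKM in control at 48 hpf, lay within 2-fold. How reads were shared between these related copies is not stated, so their values are uncertain to that extent.

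Granule enzyme genes of neutrophils differed from the 5 genes above. Lysozyme gene lyz, on chromosome 24 at 24643810 to 24646731, measured 33.3 FPKM (control) and 5.75 FPKM (foxo3b MO) at 24 hpf, then 382 FPKM (control) and 214 FPKM (foxo3b MO) at 48 hpf. Foxo3b MO was the lower library at both stages, 5.78-fold at 24 hpf and 1.79-fold at 48 hpf. The log2 fold at 48 hpf, -0.83, came to -0.16 with equal total FPKM. The myeloperoxidase gene mpx, on chromosome 10 at 6807372 to 6814454, measured 5.89 and 5.50 FPKM in the same order at the earlier stage, then 23.1 and 34.1 FPKM at the later. Its log2 folds of -0.08 and 0.54 both lay within 2-fold. They were 0.38 and 1.19 with equal total FPKM, so the sign at 24 hpf and the side of the 2-fold line at 48 hpf depend on the scale.

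At 24 hpf, lyz was the only one of the 8 genes past 2-fold in foxo3b MO, with a log2 fold of -2.34 that ranked 11 from the bottom of 11971 genes. Over all measured genes, 3.12% passed 2-fold upward and 1.94% passed it downward at this stage. None of the 8 was at least 2-fold higher, and their median log2 fold was 0.21. On a scale of equal total FPKM, ctssb.1 and LOC100151049 passed 2-fold upward at 24 hpf, with log2 folds of 1.37 and 1.32, as did 19.5% of all genes, whose median moved by 0.46.

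**Figure D2:**
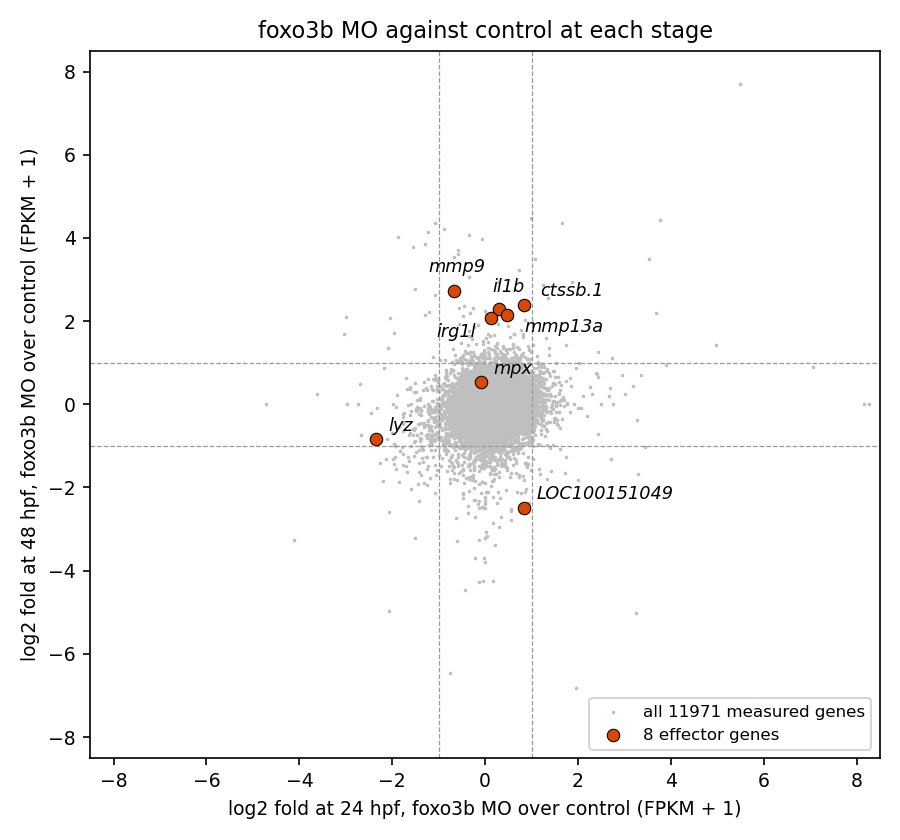
Log2 fold of foxo3b MO over control at 24 hpf (horizontal) and at 48 hpf (vertical), with 1 FPKM added, for the 11971 measured genes (grey) and the 8 effector genes (orange); dashed lines mark 2-fold. The genes il1b, mmp9, mmp13a, irg1l and ctssb.1 sit above the upper line at 48 hpf and inside the lines at 24 hpf, lyz sits left of the lines at 24 hpf, and LOC100151049 sits below the lower line at 48 hpf.

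LOC100151049 is laptm5 by its gene number in the gene table, a lysosomal membrane protein of blood cells in mammals. Its Zv9 chromosome and width differ from those listed for laptm5 in assembly GRCz12tu, so the name is in doubt. The files place its row on Zv9 chromosome 15, at 44972492 to 44975354, a width of 2863 bp next to the photoreceptor arrestin gene sagb. The gene table, of assembly GRCz12tu, has laptm5 on chromosome 19 with a width of 11668 bp, while 97.1% of 10448 matched identifiers had the same chromosome in both. The row measured 6.97 FPKM (control) and 13.2 FPKM (foxo3b MO) at 24 hpf, then 255 FPKM (control) and 44.6 FPKM (foxo3b MO) at 48 hpf. Its neighbour sagb measured 0.868 and 1.15 FPKM in the same order at the earlier stage, then 14.1 and 3.34 FPKM at the later. Both rows were therefore highest in control at 48 hpf and lower in foxo3b MO at that stage. The same held for the nearby rows zgc:63670, at 2.49 FPKM (control) and 1.45 FPKM (foxo3b MO) at 48 hpf, and atg16l1, at 16.7 and 8.18 FPKM. The rows were not alike in all respects. In foxo3b MO atg16l1 was lower at 48 than at 24 hpf (8.18 FPKM against 13.4 FPKM), whereas LOC100151049 was higher. Whether reads of another transcript enter the row was not tested, and it is called here by its identifier.

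Between 24 and 48 hpf in control, 3 of the 8 genes were at least 2-fold higher (LOC100151049, lyz and mpx) and 3 at least 2-fold lower (mmp9, irg1l and ctssb.1). Over all measured genes, 21.0% passed 2-fold upward with stage in control and 8.75% downward. The log2 fold of irg1l, -4.15, ranked 7 from the bottom of 11971 genes, and that of ctssb.1, -3.13, ranked 26. At the other end lyz had a log2 fold of 3.48 and mpx one of 1.81. The fold of mmp9, -1.17, came to -0.84 with a pseudocount of 5 FPKM.

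In foxo3b MO embryos, 6 of the 8 genes were at least 2-fold higher at 48 than at 24 hpf and 2 at least 2-fold lower, irg1l and ctssb.1. The shares over all genes were 15.7% higher and 11.5% lower. Here il1b, mmp9 and mmp13a had log2 folds of 1.46, 2.23 and 1.46, against -0.54, -1.17 and -0.20 in control. For irg1l and ctssb.1 the values were -2.20 and -1.57, so both were lower at 48 hpf in either treatment and nearer to 0 in foxo3b MO. Stage folds of lyz (4.99) and mpx (2.43) were above those in control, and that of LOC100151049 (1.68) below. With a pseudocount of 5 FPKM the fold of il1b came to 0.93, and at a threshold of 3-fold il1b and mmp13a no longer passed upward.

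**Figure D3:**
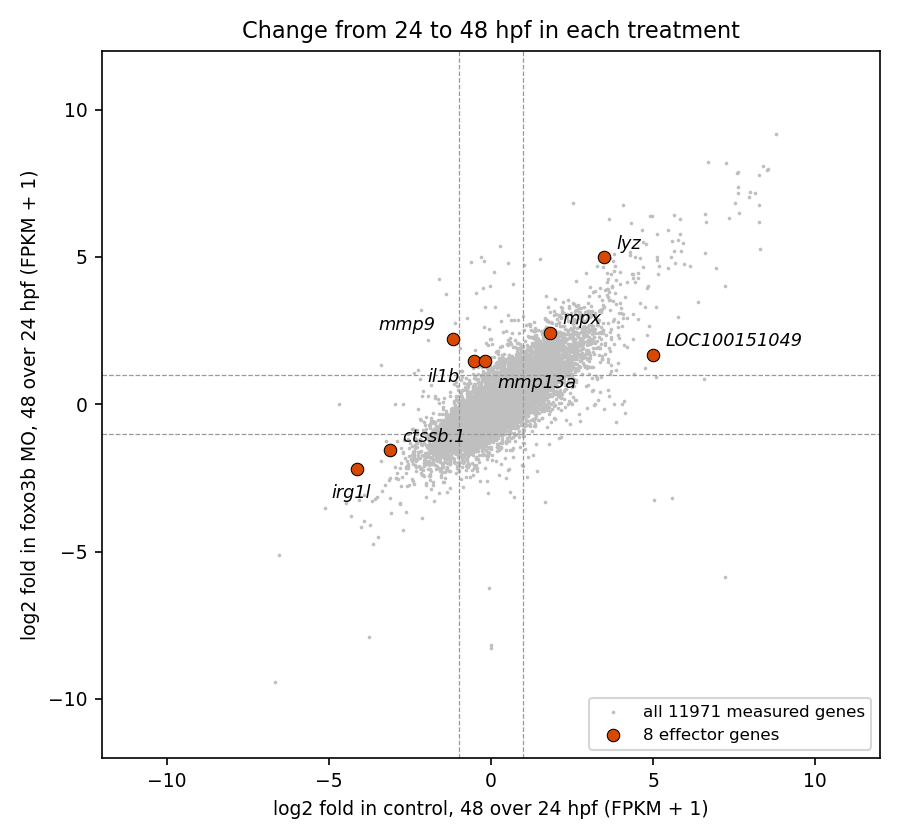
Log2 fold of 48 over 24 hpf in control (horizontal) and in foxo3b MO (vertical), with 1 FPKM added, for the 11971 measured genes (grey) and the 8 effector genes (orange); dashed lines mark 2-fold. The genes il1b, mmp9 and mmp13a lie above the upper line in foxo3b MO and below 0 in control, irg1l and ctssb.1 are low in both, and lyz and mpx are high in both.

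The difference between stages was taken as the foxo3b MO log2 fold at 48 hpf minus that at 24 hpf, and was not tested. It was 1 or more in size for 7 of the 8 genes. Of all measured genes 2.95% had a difference of at least 1 and 8.97% one of -1 or below. It was largest upward for mmp9 (3.40), followed by il1b (1.999), irg1l (1.94), mmp13a (1.67), ctssb.1 (1.56) and lyz (1.51). LOC100151049 had -3.32, and mpx, at 0.62, was the gene under 1.

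The patterns of the 8 genes over the 4 libraries were compared by the root mean square distance between centred log2 values. The nearest were il1b, mmp13a and mmp9, with distances of 0.12, 0.38 and 0.46 among them, and irg1l and ctssb.1 were 0.50 apart. Farthest apart were irg1l and lyz, at 3.94. The neutrophil genes lyz and mpx were 1.41 apart, and mpx was nearer to mmp13a, at 0.96. These distances rest on 4 libraries and are descriptions.

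Among all genes of at least 10 FPKM, those with the pattern nearest to each member were named by the same distance, except for il1b, whose mean was under 5 FPKM. The nearest genes to mmp9 were si:ch211-163l21.7 and the chemokine gene cxcl-c1c, which were also among the nearest to mmp13a after zgc:110655, a row whose interval 18 rows share. The chemokine gene measured 8.82 FPKM (control) and 7.01 FPKM (foxo3b MO) at 24 hpf, then 6.06 and 20.9 FPKM in the same order at 48 hpf, a log2 fold of 1.63. For irg1l the nearest was msgn1, for a transcription factor of early mesoderm, at 20.7 and 28.8 FPKM at the earlier stage and 0.415 and 2.50 FPKM at the later. It was followed by the cathepsin H gene ctsh and zgc:174855, with ctsh at 182 and 178 FPKM at the earlier stage and 16.3 and 46.1 FPKM at the later. The nearest to ctssb.1 were zgc:152911, oc90 and optc, with oc90, for an inner ear protein, at 22.2, 43.9, 3.65 and 10.8 FPKM in control and foxo3b MO at 24 hpf and then at 48 hpf.

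Several genes nearest to lyz and LOC100151049 are known from other tissues. For lyz they were the muscle parvalbumin genes pvalb2 and pvalb4 and the lens crystallin gene cryba4. In the same order of libraries pvalb2 stood at 1112, 281, 15493 and 9592 FPKM. It was picked for its nearness to lyz over these same libraries, so the direction it shares with lyz follows from that choice. For LOC100151049 they were eif3hb, for a translation factor subunit, the retinal transcription factor gene vsx1 and the photoreceptor phosphodiesterase gene pde6g. The gene vsx1 stood at 1.91, 1.90, 84.8 and 17.3 FPKM and pde6g at 1.62, 1.65, 42.4 and 15.9 FPKM. For mpx they were smad3b, gcshb and zgc:92594, with smad3b 0.02 away at 3.66, 3.41, 15.8 and 22.4 FPKM. What part RNA of these tissues has in the values of lyz or LOC100151049 was not tested.

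Other leukocyte genes give the setting for the 5 genes that were higher at 48 hpf. Leaving out the 8 members, none of 10 measured general leukocyte genes and none of 8 neutrophil genes was past 2-fold in foxo3b MO at either stage. At 48 hpf their median log2 folds were 0.27 and 0.22, against -0.02 over all genes. Of 11 macrophage genes 1 was at least 2-fold higher at 48 hpf, mfap4, for an extracellular protein found in zebrafish macrophages, at 47.5 FPKM against 22.8 FPKM. Of all genes 1.92% passed upward and 3.67% downward at 48 hpf, and 3.12% and 1.94% at 24 hpf. The summed FPKM of the matched general leukocyte genes was 158 (control) and 165 (foxo3b MO) at 24 hpf, then 329 (control) and 410 (foxo3b MO) at 48 hpf. The summed neutrophil genes stood at 75.0, 62.4, 159 and 209 FPKM in the same order, and the macrophage genes at 314, 235, 133 and 212 FPKM. Most of the macrophage sum was the acid phosphatase gene acp5a alone, at 264, 194, 69.8 and 120 FPKM, so that sum mainly follows this gene. With equal total FPKM, 2 of the general leukocyte genes, 3 of the neutrophil genes and 4 of the macrophage genes passed 2-fold upward at 48 hpf, beside 16.8% of all genes. With a pseudocount of 5 FPKM, or at a threshold of 3-fold, mfap4 no longer passed and no gene of the 3 lists did. Scaling by the median of ratios put 2 of the neutrophil genes past 2-fold downward at 24 hpf, beside 3.11% of all genes. With a pseudocount of 0.1 FPKM, 1 general leukocyte gene passed downward at 24 hpf and 1 upward at 48 hpf. On that setting 2 macrophage genes passed upward at 48 hpf, and 1 neutrophil gene passed upward and 2 downward at 24 hpf. The shares of all genes were then 6.5% upward and 3.28% downward at 24 hpf, and 3.07% upward at 48 hpf.

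Single leukocyte genes showed what these lists hold. Outside the members, the neutrophil gene with the highest mean over the 4 libraries was nccrp1, at 52.5 FPKM in foxo3b MO and 43.1 FPKM in control at 48 hpf, and in the same order npsn, for a protease of zebrafish neutrophils, stood at 87.8 and 54.7 FPKM on an interval it shares with npsnl. In the macrophage list acp5a, for an acid phosphatase also made by bone-resorbing cells, was the most abundant, at 120 and 69.8 FPKM. The 6 measured oxidase genes of phagocytes had none past 2-fold, with rac2 at 101 and 83.1 FPKM. In the transcription factor list 1 of 9 genes was at least 2-fold higher at 48 hpf, cebpb, a regulator of inflammatory genes, at 45.8 FPKM against 21.8 FPKM, while cebpd stood at 40.8 and 41.0 FPKM. The call of cebpb was lost with a pseudocount of 5 FPKM and at 3-fold. With a pseudocount of 0.1 FPKM 2 of the 9 genes passed upward at 48 hpf, beside 3.07% of all genes. With equal total FPKM, 2 of these 9 genes and 3 of the 6 oxidase genes passed 2-fold upward at 48 hpf, beside 16.8% of all genes. As deposited, 1.92% of all genes passed upward and 3.67% downward at that stage.

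**Figure D4:**
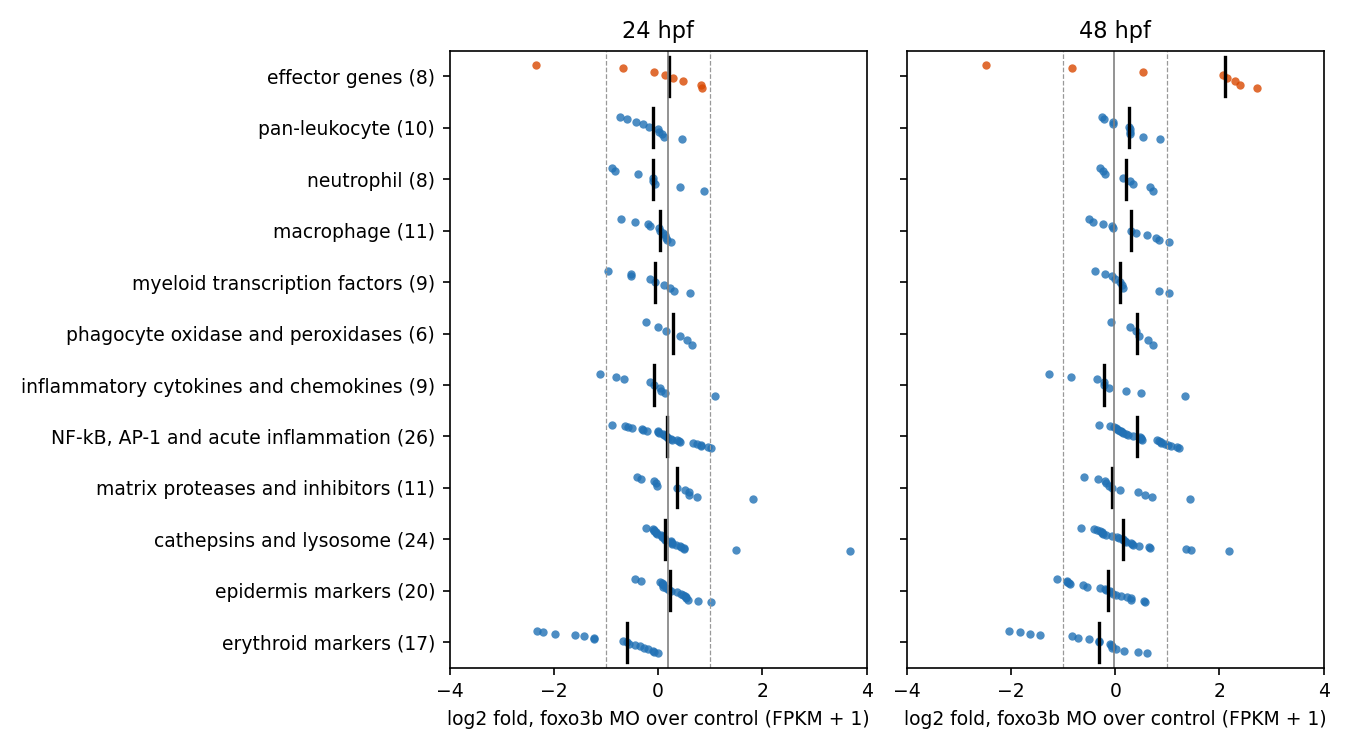
Log2 fold of foxo3b MO over control at 24 and 48 hpf, with 1 FPKM added, for the 8 effector genes (orange) and for measured genes of other lists without them (blue, number in brackets); black bars are medians, the grey line is the median of all genes and dashed lines mark 2-fold. At 48 hpf the median of the effector genes is 2.11 and those of the general leukocyte, neutrophil and macrophage lists lie between 0.22 and 0.30. The effector genes and the lists were chosen with earlier results of these data known.

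Cytokine genes other than il1b were counted in a list that does not hold cxcl-c1c, described above. Of its 9 measured genes besides il1b, tnfb, for a tumor necrosis factor, was at least 2-fold higher in foxo3b MO at 48 hpf, at 2.93 FPKM against 0.547 FPKM, and ccl25b, for a chemokine, was lower past 2-fold at both stages. At 48 hpf ccl25b stood at 22.8 FPKM against 56.4 FPKM. At 24 hpf tgfb1a, for a growth factor that restrains immune cells, stood at 11.95 FPKM against 5.10 FPKM. The most abundant was mif, at 84.7 FPKM against 153 FPKM at 48 hpf. Other inflammatory cytokine genes were scarce: tnfa, il10, il12a, il12ba, il34 and lta were under 1 FPKM in all 4 libraries. Of 12 receptor and sensor genes, il4r, for the interleukin 4 receptor, was at least 2-fold higher at 48 hpf (5.27 FPKM against 0.692 FPKM) and il6st, for the shared receptor chain of the interleukin 6 family, at 24 hpf (14.0 FPKM against 4.69 FPKM). The most abundant of them was pycard, for an inflammasome adaptor, at 228 FPKM against 235 FPKM at 48 hpf. In every library but foxo3b MO at 48 hpf il4r was under 1 FPKM. It thus counts as measured only through the library in which it is called higher, so its call has no weight. With a pseudocount of 5 FPKM none of tnfb, tgfb1a, il4r and il6st passed 2-fold, nor did ccl25b at 24 hpf. With equal total FPKM, 2 of the 9 cytokine genes and 4 of the 12 receptor genes passed upward at 48 hpf and none downward. On that scale 16.8% of all genes passed upward and 1.1% downward. As deposited, 1.92% of all genes passed upward and 3.67% downward at 48 hpf, and 3.12% and 1.94% at 24 hpf.

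Among regulators and products of acute inflammation, 4 of 26 measured genes passed 2-fold upward in foxo3b MO at 48 hpf and none downward. Of all genes 1.92% passed upward and 3.67% downward. The 4 were irg1, junba, atf3 and ptgs2b, of which the naming rule takes the first pair. The itaconate enzyme gene irg1 stood at 3.94 FPKM against 1.101 FPKM and junba, for an AP-1 transcription factor, at 5.04 FPKM against 1.67 FPKM. The list's median log2 fold was 0.41. At 24 hpf 1 of the 26 was at least 2-fold higher, beside 3.12% of all genes. It was traf6, for a signalling adaptor, at 14.99 FPKM against 6.95 FPKM. Its log2 fold of 1.01 lay at the line. The call was lost with a pseudocount of 5 FPKM, with scaling by the median of ratios and at 3-fold. With equal total FPKM 6 of 27 passed upward at 24 hpf, beside 19.5% of all genes. The complement gene c3a was the most abundant, at 366 FPKM against 264 FPKM at 48 hpf. With a pseudocount of 5 FPKM, and at a threshold of 3-fold, none of the 26 passed upward at 48 hpf. With a pseudocount of 0.1 FPKM 7 did, beside 3.07% of all genes. With equal total FPKM 15 of 27 did, beside 16.8% of all genes, and their median log2 fold was 1.02 against 0.60 over all genes.

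Other matrix proteases did not share the difference of mmp9 and mmp13a at 48 hpf. Of 11 other measured genes of matrix proteases and their inhibitors, timp2b, for an inhibitor, was at least 2-fold higher, at 20.6 FPKM against 7.01 FPKM, and none was at least 2-fold lower. Of all genes 1.92% were higher and 3.67% lower. With equal total FPKM 4 of the 11 were higher, beside 16.8% of all genes. The gelatinase gene mmp2, the most abundant, stood at 86.8 FPKM against 98.9 FPKM at 48 hpf but at 138 FPKM against 38.1 FPKM at 24 hpf.

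Cathepsin and lysosome genes, 24 besides the members, had 3 at least 2-fold higher in foxo3b MO at 48 hpf and none lower. Of all genes 1.92% were higher and 3.67% lower. The 3 were ctsh (46.1 FPKM against 16.3 FPKM), the cathepsin L gene ctsl1b (143 FPKM against 55.1 FPKM) and the lysosomal channel gene mcoln1 (117 FPKM against 25.0 FPKM). With equal total FPKM 7 of the 24 were higher, beside 16.8% of all genes. At 24 hpf 2 were at least 2-fold higher as deposited, beside 3.12% of all genes: mcoln1 and the cathepsin C gene ctsc, at 138 FPKM against 48.1 FPKM. The most abundant cathepsin gene, ctsl1a, stood at 1874 FPKM against 1491 FPKM at 48 hpf. Like irg1l and ctssb.1, both ctsh and ctsl1b had their higher values at 24 hpf, where ctsl1b measured 1486 FPKM in foxo3b MO against 1241 FPKM in control. Which cells the RNA of ctsh and ctsl1b came from was not tested, so their values do not stand for macrophages.

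Markers of other cells were compared as well. Of 20 epidermis markers, none passed 2-fold upward and 1 passed it downward at 48 hpf, beside 1.92% and 3.67% of all genes. Their sum was 26883, 29809, 41602 and 30668 FPKM in control and foxo3b MO at 24 hpf and then at 48 hpf. The epidermal keratin gene krt5 measured 1436, 1950, 390 and 478 FPKM in the same order. Another gene of the list, icn, measured 2701, 2828, 15870 and 8630 FPKM, so krt5 does not stand for the list. At 48 hpf the median log2 fold of the epidermis markers was -0.14, against -0.02 over all genes. Of 17 erythroid markers 7 at 24 hpf and 4 at 48 hpf were at least 2-fold lower, beside 1.94% and 3.67% of all genes. At 48 hpf all of these were globin genes, and the other erythroid markers lay within 2-fold. At 24 hpf they were globin genes except for alas2 and slc4a1a. The sum of the 17 in the same order of libraries was 15736, 3947, 26470 and 10301 FPKM, which mainly follows the globin genes. On the scale of equal total FPKM 4 of the erythroid markers were lower at 24 hpf, beside 0.683% of all genes. At 48 hpf 2 of them were lower and 2 higher, and of the epidermis markers 2 were higher and none lower. On that scale 1.1% of all genes were lower at 48 hpf and 16.8% higher. The globin gene hbae3, the most abundant, stood at 2485, 928, 11506 and 3710 FPKM and hbbe3 at 9075, 1815, 2340 and 2207 FPKM. The part that a different mix of sorted cells has in the values of the 8 genes was not tested.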

How the data were processed

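The submitters' processing notes name TopHat, Cufflinks and the Zv9 assembly, without versions, options or annotation. The deposited values are FPKM for 14417 genes in each of 4 libraries, 1 per group. The FPKM were used as deposited, with no scaling between libraries. Log2 folds were log2 of the ratio of FPKM + 1, counted past 2-fold among 11971 genes that average 1 FPKM or more. No test was run, since each group has 1 library. Relative depth came from genes with a mean under 0.15 FPKM, 203, 243 and 103 of them, of which 51.2%, 47.3% and 52.4% had a ratio to control at 24 hpf within 0.03 log2 of a step of whole fragments. The same shares at shifted positions had medians of 4.43%, 3.29% and 1.94%. Of the identifiers 14188 matched a zebrafish gene table, used for names and neighbours only.

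The 8 members, the 17 gene lists and the alternatives of the closing section were chosen with earlier results of these data known. Besides the members, the naming rule took from each list the most abundant gene and, for each foxo3b MO comparison, up to 2 genes past 2-fold in each direction, and the 3 genes nearest in pattern to each member of at least 5 FPKM. Further genes (lcp1, coro1a, spi1, mpeg1, csf1ra, lgals9l1, ikzf1, npsn, ctssb.2, ctsl1b, atf3, ptgs2b, krt5, icn, alas2, slc4a1a, sagb, zgc:63670, atg16l1 and those named as scarce) were chosen after their values were seen. Not every gene that the rule takes is described: the most abundant of the other marker lists, 2 more globin genes, 2 epidermis genes and 1 leukocyte gene are not reported here. Lists of lymphoid, mast cell, thrombocyte, endothelial and notochord markers had no measured gene past 2-fold in foxo3b MO at 48 hpf. Of all genes 1.92% passed upward and 3.67% downward at that stage. At 24 hpf the endothelial gene kdr passed 2-fold upward (8.49 FPKM against 3.03 FPKM), beside 3.12% of all genes. With equal total FPKM, 4 of 13 notochord, 1 of 5 thrombocyte and 1 of 10 endothelial markers passed upward at 48 hpf, beside 16.8% of all genes. The functions were tested on simulated data. The software was matplotlib 3.10.9, pandas 2.3.3, numpy 2.4.6 and Python 3.11.15.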

Additional observations from a re-analysis of the deposited data

Results flagged for a closer look

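For 3 of the 8 genes the foxo3b MO library stood on opposite sides of control at the 2 stages, and with 1 library per group the difference was not tested. The difference of log2 folds, 48 minus 24 hpf, was 3.40 for mmp9, which stood at 8.65 FPKM against 14.4 FPKM at 24 hpf and at 44.3 FPKM against 5.86 FPKM at 48 hpf. It was -3.32 for LOC100151049, at 13.2 FPKM against 6.97 FPKM and then at 44.6 FPKM against 255 FPKM. It was 0.62 for mpx, whose log2 folds of -0.08 and 0.54 both lay within 2-fold. The signs at 24 hpf depend on the scale for a pair of genes: with equal total FPKM mpx had a log2 fold of 0.38, the same side as at 48 hpf, and with scaling by the median of ratios irg1l had -0.11, the side opposite to 48 hpf.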

How the results depend on the processing

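No paired analysis was possible because each group holds 1 library, and for the same reason no library could be left out. Counts of members past 2-fold were compared under a threshold of 3-fold, 3 other scalings, a floor raised to 5 FPKM or removed, and a pseudocount of 0.1 or 5 FPKM. A further setting left out LOC100151049. The number of members whose difference between stages was 1 or more in size was compared too, except at 3-fold. Of these 80 counts in all, 76 stayed within 1.5 times. Those without a floor could not change, since all 8 members lie above it. The number at least 2-fold higher in foxo3b MO at 24 hpf went from 0 to 2 with equal total FPKM and to 2 with equal totals without ribosomal protein genes. Of all genes 19.5% and 8.3% passed upward on these scales, against 3.12% as deposited. The number at least 2-fold lower with stage in foxo3b MO went from 2 to 1 at 3-fold, which 3.16% of all genes passed downward. In the upward direction il1b and mmp13a, each with a log2 fold of 1.46, were lost at 3-fold, which 7.63% of all genes passed. With stage in control mmp9 (-1.17) was lost at 3-fold as well. The counts left by the losses of il1b, mmp13a and mmp9 are among those within 1.5 times. Without LOC100151049, an alternative added after seeing the data, the number lower in foxo3b MO at 48 hpf went from 1 to 0. No member past 2-fold turned its direction. At 48 hpf the log2 folds of the 5 higher genes lay between 1.31 (il1b, pseudocount of 5 FPKM) and 3.34 (mmp9), and lyz at 24 hpf between -2.56 and -1.83. With equal total FPKM, with or without ribosomal protein genes, mpx made the number higher at 48 hpf 6 in place of 5. Of all genes 16.8% passed upward with these genes and 12.9% without them, against 1.92% as deposited. The floor of 5 FPKM leaves out il1b.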
